A study of Homo sapiens with 8 samples.

Results

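The 9 genes described here control how cells answer stress at the level of translation initiation. They are the 4 kinases that phosphorylate the initiation factor eIF2 (EIF2AK1, EIF2AK2, EIF2AK3 and EIF2AK4), the 2 subunits that direct protein phosphatase 1 to it (PPP1R15A and PPP1R15B) and 3 bZIP transcription factors of the response (ATF4, ATF5 and DDIT3). They were chosen by symbol from the 58302 genes in the tables of ribosome footprints and input RNA, and all 9 matched a RefSeq gene by identifier and symbol.

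The cells were MOLM-13, an established human line of acute myeloid leukaemia cells that carries an internal tandem duplication of FLT3 and a fused MLL gene. They carried a hairpin that the labels write as Sh-NC, the control (sh-NC here), or one written as Sh-cricMY1, taken from the series title to be directed at the circular RNA circMYBL2 (sh-circMYBL2 here). For each hairpin, footprints and input RNA were sequenced in 2 libraries each, 8 in all. No stress agent, dose or time is given in the labels. The sample titles name 1 hairpin against the circular RNA, but its footprint columns end in a number that may be part of a hairpin's name. A row for circMYBL2 was not matched, so the depletion itself was not checked here. Separate cultures are not mentioned for the libraries of a group, so the p-values reflect the spread of these samples alone, and that spread may be technical.

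When eIF2 is phosphorylated on its alpha subunit, fewer initiator complexes form and most mRNAs are translated less. HRI (EIF2AK1) senses haem shortage and mitochondrial stress, PKR (EIF2AK2) double-stranded RNA, PERK (EIF2AK3) unfolded protein in the endoplasmic reticulum and GCN2 (EIF2AK4) amino acid shortage. The mRNAs of ATF4, ATF5, DDIT3 (which encodes CHOP), PPP1R15A (GADD34) and PPP1R15B (CReP) carry short upstream open reading frames (uORFs) that hold back the main frame in unstressed cells and let it be read when eIF2 is phosphorylated. ATF4 then activates genes of amino acid supply, and GADD34 closes the loop by bringing about dephosphorylation of eIF2.

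Depth differed strongly between the assays. Reads on genes numbered 13507486 to 14606366 in the 4 RNA libraries. Footprint reads on genes numbered 80160 and 300379 reads with sh-NC (libraries 1 and 2) and 222855 and 715092 with sh-circMYBL2 (libraries a and b, whose column names end in a number that may be part of the hairpin's name). Of these, 33708, 88701, 125761 and 584185 fell on protein-coding genes, and by that count the sh-NC libraries were the shallower ones. By reads on genes, sh-NC library 2 was deeper than sh-circMYBL2 library a. By both counts sh-NC library 1 was the shallowest and sh-circMYBL2 library b the deepest, so library b weighs most in footprints pooled over libraries. Markers of myeloid cells reached a mean of 1 FPKM for 9 of 11 genes, against 0 of 7 erythroid, 0 of 4 megakaryocyte, 0 of 6 lymphoid and 0 of 6 adherent or stromal markers. The summed RNA of the myeloid markers was 775 to 813 FPKM with sh-NC and 958 to 999.7 FPKM with sh-circMYBL2, and its part in the results below was not tested. In bulk libraries fewer cells with an RNA and less of it per cell cannot be told apart.

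Input RNA of the 3 bZIP factors fell with sh-circMYBL2. The mean level with sh-circMYBL2 was 0.312 of that with sh-NC for DDIT3, 0.396 for ATF5 and 0.744 for ATF4. No kinase and neither phosphatase subunit passed the test, although 3 kinases lay slightly above and both phosphatase subunits slightly below their sh-NC levels in each library. RNA levels are FPKM, that is, reads per length of the gene and per total of the library. Changes were tested with limma on log2(FPKM + 1), as sh-circMYBL2 over sh-NC, with a threshold of 0.05 on p adjusted over all 12489 genes tested.

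EIF2AK1, on chromosome 7 (GRCh38, 6022247 to 6059175), was the most abundant of the kinases. Its RNA was 20.02 and 20.48 FPKM in sh-NC libraries 1 and 2 and 22.7 and 23.1 FPKM in sh-circMYBL2 libraries 1 and 2. The groups did not overlap, yet the log2 change of 0.17 (SE 0.04, n = 2 per group) had an adjusted p of 0.0659 in limma. EIF2AK2 (chromosome 2, 37099210 to 37156980) was at 8.74 and 8.21 FPKM with sh-NC and at 9.93 and 10.2 FPKM with sh-circMYBL2. Its libraries with sh-circMYBL2 were both the higher ones, with a log2 change of 0.22 (SE 0.05) and an adjusted p of 0.0785 in limma. EIF2AK4 (chromosome 15, 39934115 to 40035591) was at 5.48 and 5.40 FPKM with sh-NC and at 6.58 and 6.46 FPKM with sh-circMYBL2, again without overlap (log2 change 0.22, SE 0.05, limma adjusted p 0.0733). EIF2AK3 (chromosome 2, 88556741 to 88628145), which encodes PERK, was the lowest of the 9 genes with sh-NC. It was at 3.43 and 2.94 FPKM with sh-NC and at 3.27 and 2.86 FPKM with sh-circMYBL2. These libraries overlapped, and the log2 change was -0.04 (SE 0.10, limma adjusted p 0.826).

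The phosphatase subunits lay on the other side. PPP1R15A (chromosome 19, 48872421 to 48876058), the stress-induced subunit, was at 14.85 and 16.22 FPKM with sh-NC and at 13.16 and 12.29 FPKM with sh-circMYBL2. PPP1R15B (chromosome 1, 204395826 to 204411817), the constitutive subunit, was at 13.4 and 13.6 FPKM with sh-NC and at 11.7 and 10.6 FPKM with sh-circMYBL2. In both genes the sh-circMYBL2 libraries were the lower ones. The ratios of the means were 0.819 and 0.825, with log2 changes of -0.27 (SE 0.06) and -0.26 (SE 0.06). Neither passed the threshold, with limma adjusted p values of 0.0822 for PPP1R15A and 0.0727 for PPP1R15B.

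ATF4 (chromosome 22, 39520559 to 39522686), the main effector of eIF2 phosphorylation, had the most abundant RNA of the 9 genes. It was at 50.5 and 46.3 FPKM with sh-NC and at 36.1 and 35.9 FPKM with sh-circMYBL2, a log2 change of -0.42 (SE 0.05, limma adjusted p 0.0284). ATF5 (chromosome 19, 49928906 to 49933935), a related factor of mitochondrial and proteotoxic stress, was at 30.4 and 31.1 FPKM with sh-NC and at 12.5 and 11.9 FPKM with sh-circMYBL2. The libraries of each hairpin lay close together and the hairpins far apart, with a log2 change of -1.27 (SE 0.04, limma adjusted p 0.0072). DDIT3 (chromosome 12, 57516588 to 57520517), whose product CHOP takes part in stress-induced cell death, was at 10.4 FPKM in both sh-NC libraries and at 3.64 and 2.83 FPKM with sh-circMYBL2. It rested on 364 reads with sh-NC and 116 with sh-circMYBL2, and fell by 1.43 on the log2 scale (SE 0.11, limma adjusted p 0.0121). Both sh-circMYBL2 libraries lay below both sh-NC libraries in each of the 3 genes.

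**Figure D1:**
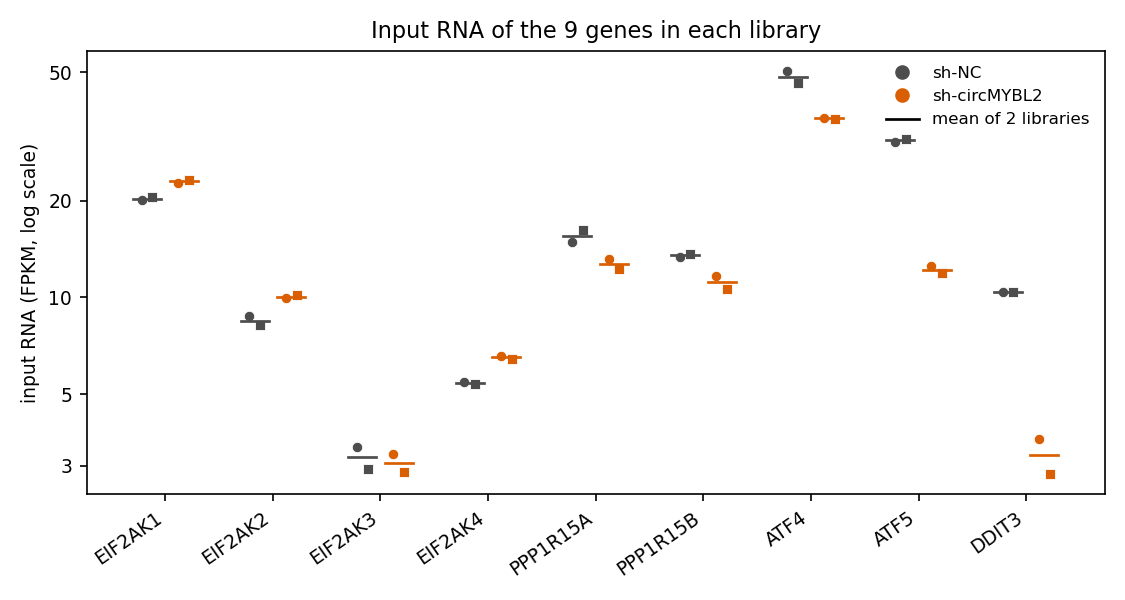
Input RNA of the 9 genes in FPKM on a log scale, 1 point per library (circle for replicate 1, square for replicate 2) and a bar at the mean of 2 libraries, for sh-NC (grey) and sh-circMYBL2 (orange). ATF4, ATF5 and DDIT3 lie lower with sh-circMYBL2, while EIF2AK3 stays between 2.86 and 3.43 FPKM in every library.

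All 9 genes passed the filter for RNA, and 3 were called lower and 0 higher. Over all genes tested, 3.96% were called lower and 4.92% higher. The members' median log2 change was -0.26, and the median of all genes was -0.0037. Groups did not overlap in 5 members that were lower and 3 that were higher, beside 30.7% and 30% of all genes. With limma's voom on reads recovered from the values, an alternative test, 5 members were called lower and 3 higher, beside 12.5% and 13.7% of all genes. The members added were PPP1R15A (adjusted p 0.00317) and PPP1R15B (adjusted p 0.000806) on the lower side, and EIF2AK1 (adjusted p 0.00546), EIF2AK2 (adjusted p 0.000473) and EIF2AK4 (adjusted p 0.000779) on the higher side in voom. Without any 1 of the 4 RNA libraries, no gene of the whole table was called by limma, and the changes of ATF4, ATF5 and DDIT3 then ranged from -0.48 to -0.35, from -1.30 to -1.23 and from -1.57 to -1.29.

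The order of the RNA levels changed along with these 3 genes. With sh-NC it ran ATF4, ATF5, EIF2AK1, PPP1R15A, PPP1R15B, DDIT3, EIF2AK2, EIF2AK4 and EIF2AK3, and the libraries of each gene were apart from those of the next. With sh-circMYBL2 it ran ATF4, EIF2AK1, PPP1R15A, ATF5, PPP1R15B, EIF2AK2, EIF2AK4, DDIT3 and EIF2AK3. There PPP1R15A and ATF5 overlapped, as did DDIT3 and EIF2AK3, and the other neighbours did not. Among protein-coding genes above 0, 6.3% had a higher mean RNA than ATF5 with sh-NC and 18.5% with sh-circMYBL2. For DDIT3 these shares were 21.2% and 45.3%, and for ATF4 they were 3.36% and 5.22%.

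Some of the genes share their place with others, and the strand setting of the counting is not given in the sources used here, so reads of overlapping genes are not separated with certainty. DDIT3 overlaps the end of MARS1, a tRNA synthetase gene, which was at 19.6 and 20.6 FPKM with sh-NC and at 13.15 and 12.95 FPKM with sh-circMYBL2. It also holds MIR616, a microRNA gene singled out after its values were seen, which was at 19.2 to 19.4 FPKM in all 4 RNA libraries. MIR616 spans only 57519163 to 57519259, so these values rest on few reads and do not rank it above DDIT3. ATF5 overlaps NUP62, at 6.04 and 6.72 FPKM with sh-NC and 7.59 and 7.33 FPKM with sh-circMYBL2. EIF2AK1 overlaps AIMP2 and EIF2AK2 overlaps GPATCH11. The processed copies of ATF4 (ATF4P1 to ATF4P4) were listed at no more than 0.326 FPKM in any RNA library.

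The starts of the genes were compared because 3 members fell together and 2 others had like, uncalled changes. Promoter sequence from RefSeq (GRCh38.p14) was matched for 8 of the 9 genes, all but EIF2AK1. The 250 bases before the first listed start are given for the 5 members with uORF-bearing mRNAs, in the direction of transcription. Capitals mark matches, on either strand, to 4 motifs: the composite C/EBP-ATF element (TGATGNAA) that ATF4 and CHOP bind with C/EBP partners, the cyclic AMP response element (TGACGTCA), the AP-1 element (TGACTCA) and the CCAAT box (CCAAT, or ATTGG on the other strand). No 2 of the marked matches overlap. The windows are chr22:39520309-39520558 (plus strand) for ATF4, chr19:49928656-49928905 (plus) for ATF5, chr12:57520515-57520764 (minus) for DDIT3, chr19:48872171-48872420 (plus) for PPP1R15A and chr1:204411818-204412067 (minus) for PPP1R15B.
ATF4: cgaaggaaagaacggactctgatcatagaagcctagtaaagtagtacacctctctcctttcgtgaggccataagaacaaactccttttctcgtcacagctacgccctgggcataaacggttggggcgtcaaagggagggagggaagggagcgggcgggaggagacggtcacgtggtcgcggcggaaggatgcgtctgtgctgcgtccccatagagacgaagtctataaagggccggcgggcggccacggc
ATF5: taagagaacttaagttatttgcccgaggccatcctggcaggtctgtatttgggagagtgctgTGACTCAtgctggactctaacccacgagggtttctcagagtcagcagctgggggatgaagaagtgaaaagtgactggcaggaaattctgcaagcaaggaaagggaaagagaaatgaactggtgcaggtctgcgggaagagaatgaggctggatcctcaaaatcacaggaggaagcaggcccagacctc
DDIT3: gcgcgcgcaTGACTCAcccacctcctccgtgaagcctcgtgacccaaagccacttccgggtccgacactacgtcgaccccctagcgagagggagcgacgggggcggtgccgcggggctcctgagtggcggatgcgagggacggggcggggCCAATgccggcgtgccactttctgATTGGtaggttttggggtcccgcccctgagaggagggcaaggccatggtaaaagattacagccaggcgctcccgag
PPP1R15A: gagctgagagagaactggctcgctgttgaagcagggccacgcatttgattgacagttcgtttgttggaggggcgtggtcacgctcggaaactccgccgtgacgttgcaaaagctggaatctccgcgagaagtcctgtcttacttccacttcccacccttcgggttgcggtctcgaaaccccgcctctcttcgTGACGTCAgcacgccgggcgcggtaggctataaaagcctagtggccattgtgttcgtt
PPP1R15B: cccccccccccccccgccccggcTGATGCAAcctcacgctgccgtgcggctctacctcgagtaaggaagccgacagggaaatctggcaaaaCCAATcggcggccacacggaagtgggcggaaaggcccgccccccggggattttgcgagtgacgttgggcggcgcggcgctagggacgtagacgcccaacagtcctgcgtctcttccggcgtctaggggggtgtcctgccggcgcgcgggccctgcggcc

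Within these windows, no motif was shared by the 3 genes that fell. Sequence outside the windows was not searched, so a gene without a match here may still carry the motif farther away. TGACTCA stood in the windows of DDIT3 (position -241 from the start) and ATF5 (-188), and in 4.2% of 35116 promoter windows of this length. The other 2 listed starts of ATF5 had none of the 4 motifs, and neither had ATF4. TGACGTCA stood in PPP1R15A at -58 and in 1.65% of all windows. PPP1R15B had TGATGCAA, a form of the composite element, at -227, and 3.14% of all windows held that element. The CCAAT box, in 32% of windows, was found in DDIT3 (-100 and, reversed, -76) and PPP1R15B (-159). Of the kinases, EIF2AK3 had it at 4 positions and EIF2AK2 at 2, and EIF2AK4 had none of the motifs. A match is a description of these letters and not a bound site.

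Footprints of the 9 genes were sparse, and limma called none of them higher or lower with sh-circMYBL2. Of the 8 that passed the filter, 7 had a change above 0 and EIF2AK3 one below 0. DDIT3 had no footprint read in any library. Footprint levels are RPKM, and the number of reads behind each is given because 1 read is a large step here.

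EIF2AK1 had 2 and 22 footprint reads in sh-NC libraries 1 and 2 and 32 and 132 in sh-circMYBL2 libraries a and b, or 4.38, 21.4, 22.3 and 21.4 RPKM. Only sh-NC library 1 was low. EIF2AK2 had 2, 14, 14 and 88 reads in the same order, or 2.26, 7.01, 5.03 and 7.35 RPKM, and its groups overlapped. EIF2AK4 had 1, 8, 17 and 63 reads, or 1.02, 3.60, 5.49 and 4.73 RPKM, and both sh-circMYBL2 libraries were above both sh-NC libraries. EIF2AK3 went the other way, with 3, 7, 4 and 16 reads, or 6.71, 6.94, 2.84 and 2.65 RPKM. Its sh-NC libraries lay together well above the sh-circMYBL2 libraries, but rested on 10 reads in all. The log2 change of EIF2AK3 was -1.06 (SE 0.64, limma adjusted p 0.611).

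PPP1R15A had 0 reads in both sh-NC libraries and 4 and 14 reads with sh-circMYBL2, or 4.99 and 4.07 RPKM (4.53 ± 0.66, SD, n = 2). PPP1R15B had 1, 31, 29 and 148 reads, or 2.33, 31.9, 21.4 and 25.4 RPKM, the highest mean of the 9 genes with sh-circMYBL2, although EIF2AK1 was higher in library a. Its sh-NC libraries differed from each other more than the hairpins did. ATF4 had 0, 4, 7 and 19 reads, or 0, 8.57, 10.8 and 6.79 RPKM, with overlap. ATF5 had 0, 2, 5 and 13 reads, or 0, 3.65, 6.54 and 3.95 RPKM. The sh-circMYBL2 libraries of ATF5 were both above the sh-NC libraries, narrowly so for library b. For DDIT3, 0 reads allow up to 3 reads in a library, or 36.5, 16.2, 11.6 and 2.69 RPM in sh-NC 1, sh-NC 2, sh-circMYBL2 a and sh-circMYBL2 b, relative to the totals used in scaling.

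**Figure D2:**
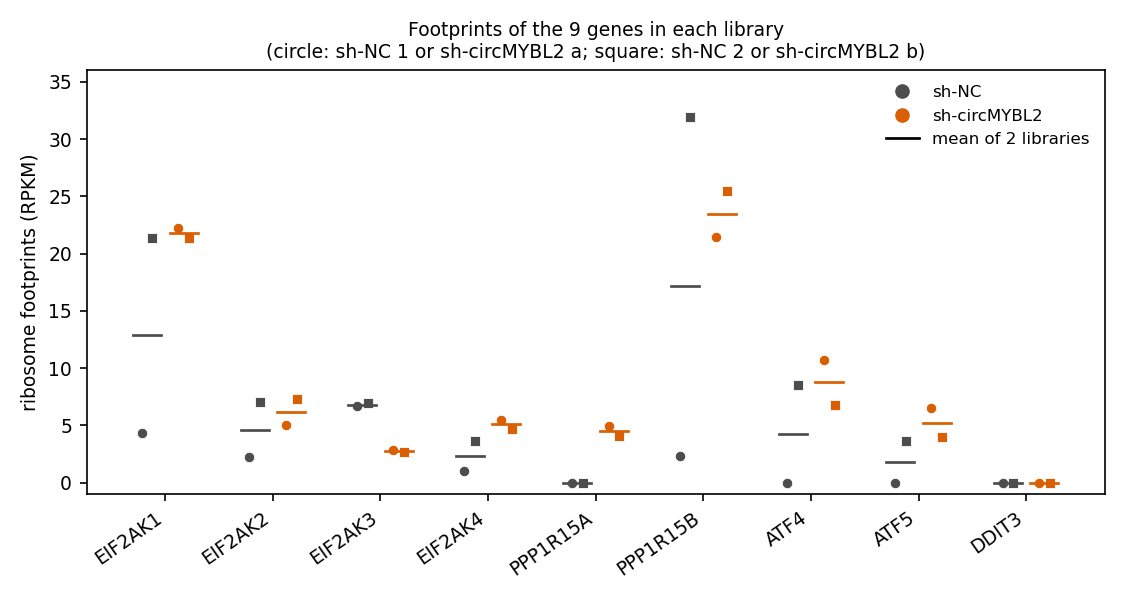
Ribosome footprints of the 9 genes in RPKM, 1 point per library (circle for sh-NC 1 or sh-circMYBL2 a, square for sh-NC 2 or sh-circMYBL2 b) with a bar at the mean of 2 libraries. The sh-NC circle is the low one for EIF2AK1, PPP1R15B, ATF4 and ATF5, while EIF2AK3 has both sh-NC points above the sh-circMYBL2 points.

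In the footprint comparison 0 of 9431 genes were called higher (0%) and 0 lower (0%) by limma, against 1047 higher and 165 lower at an unadjusted p under 0.05 and 6 higher and 50 lower by voom. Of the members, 1 had an unadjusted limma p under 0.05, PPP1R15A (log2 change 2.46, SE 0.59, p 0.013, adjusted p 0.323). PPP1R15A passed the filter only through its sh-circMYBL2 libraries, with 2 values of 0 for sh-NC, so this p is not support for a change. Groups did not overlap in 4 members that were higher (EIF2AK1, EIF2AK4, PPP1R15A and ATF5) and in 1 that was lower (EIF2AK3), beside 30.7% and 10.9% of all genes tested. EIF2AK1 was barely apart, at 21.35 RPKM in sh-NC library 2 and 21.36 RPKM in sh-circMYBL2 library b. The median log2 change of the 8 members was 1.14 and that of all genes 0.56. In the 4438 genes above 0 in every footprint library the median was -0.0135. The members' median rested on the shallowest library: without sh-NC library 1 it was 0.01 and that of all genes 0.24. There 4 members lay above 0 and 4 below. Without sh-circMYBL2 library a or b, PPP1R15A passed limma's threshold (adjusted p 0.0119 and 0.0226), but in those fits its own spread came from 2 values of 0 alone, and 8.26% and 7.92% of all genes were called higher. Summed over the libraries of a hairpin and scaled to their totals, footprints with sh-circMYBL2 over sh-NC had a ratio of 1.33 for EIF2AK1 (exact 95% interval 0.866 to 2.14), 1.24 for EIF2AK2 (0.731 to 2.26) and 1.74 for EIF2AK4 (0.870 to 3.93). The ratio was 0.39 for EIF2AK3 (0.174 to 0.934), 1.08 for PPP1R15B (0.738 to 1.63), 1.27 for ATF4 (0.440 to 5.003) and 1.76 for ATF5 (0.421 to 15.6). PPP1R15A had 18 reads with sh-circMYBL2 and 0 with sh-NC. Its ratio was 1.17 if sh-NC is given 3 reads over the group as a floor. That value leaves out the counting error of the 18 reads, so it is not a lower limit like those of the intervals. The intervals cover counting error only.

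Translational efficiency (TE) is how far the footprint change exceeds the RNA change, tested in a fit of all 8 libraries that gives each gene 1 variance for both assays. Of the 8 members tested, 1 was called higher and 0 lower, beside 5.05% and 0.266% of 8260 genes. The call was PPP1R15A, with a TE change of 2.73 on the log2 scale (SE 0.37, limma adjusted p 0.0284). However, PPP1R15A passed the filter only through its sh-circMYBL2 libraries, the 2 values of 0 with sh-NC have no spread, and a change fitted over them depends on the pseudocount. The median gene would have given 6.64 reads at its sh-NC RNA level. The call was lost with a pseudocount of 5 (adjusted p 0.0817), with quantile normalization (0.328), with voom (0.0786), with a weight for each assay (0.271) and without any 1 RNA library (limma adjusted p 0.274 to 0.294). ATF5 had a TE change of 2.77 (SE 1.01, limma adjusted p 0.212) and ATF4 one of 2.04 (SE 1.41, adjusted p 0.525). For both, RNA fell and footprints did not pass the test. EIF2AK3 had the lowest, at -1.02 (SE 0.37, limma adjusted p 0.214). EIF2AK1, EIF2AK2, EIF2AK4 and PPP1R15B had TE changes of 0.89, 0.25, 0.78 and 1.48 with limma adjusted p values from 0.582 to 0.875. The median TE change was 1.18 in the members and 0.57 in all genes. Without sh-NC footprint library 1 these medians were 0.02 and 0.23, and 2 of 8 members were called higher and 1 lower, beside 26.1% and 11.1% of all genes. Without sh-NC footprint library 2, 7 members were called higher and 1 lower, beside 45.3% and 15% of all genes. DDIT3 was not tested in either comparison.

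**Figure D3:**
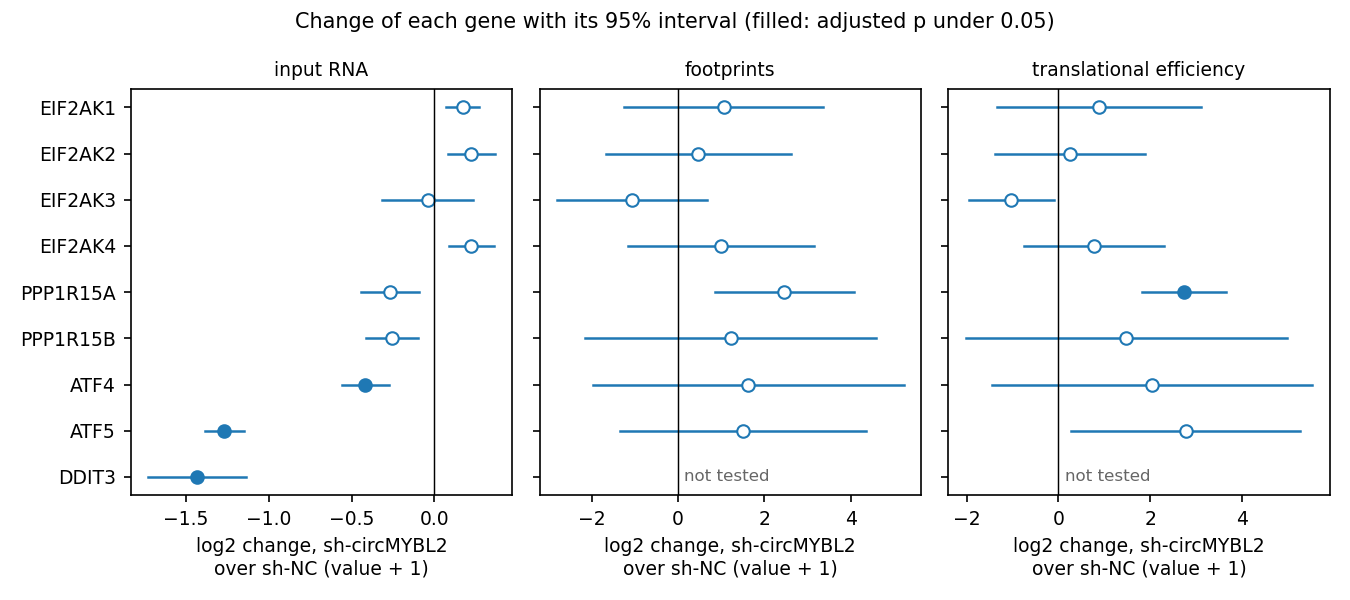
Log2 change of each gene with sh-circMYBL2 over sh-NC in input RNA, footprints and translational efficiency, on log2(value + 1), with the 95% interval of limma as a line and a filled point where adjusted p was under 0.05. The intervals are narrow for RNA, where ATF4, ATF5 and DDIT3 are filled, and wide for footprints, and the horizontal scales differ between panels.

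The level of footprints for a given amount of RNA set the members apart from each other. Over all libraries of each assay, 9093 protein-coding genes with a mean of at least 1 FPKM had a median ratio of footprint RPKM to RNA FPKM of 0.752. DDIT3, ATF4, ATF5 and PPP1R15A lay far below that ratio, the kinases near it and PPP1R15B above it. Since RNA and depth differed between hairpins, the reads that a median gene would have given were also summed over the hairpins, each at its own RNA level and its own median, a choice made after seeing the data. DDIT3 had 0 footprint reads, where the pooled median ratio would have given 10.6 and the sum by hairpin 6.14, and the exact 95% interval allows up to 3.69 reads. ATF4 had 30 reads where the median ratio would have given 130.5, or 0.23 of the median gene (0.155 to 0.328), and 9.73% of the genes lay lower. By hairpin the expected reads were 112.5 and the ratio 0.267 (0.180 to 0.381). ATF5 had 20 reads against 77.9, or 0.257 of the median gene (0.157 to 0.397), at percentile 11.1. By hairpin 50.7 reads were expected for ATF5, a ratio of 0.395 (0.241 to 0.610). PPP1R15A had 18 reads against 53.9, or 0.334 (0.198 to 0.528), at percentile 15. By hairpin 48.3 were expected for it, a ratio of 0.373 (0.221 to 0.589), so ATF5 and PPP1R15A changed places in the order. All 4 have uORF-bearing mRNAs, as has PPP1R15B. No test was made of this difference between genes.

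Among the kinases, EIF2AK2 was at 0.96 of the median gene (0.794 to 1.15), EIF2AK4 at 1.01 (0.809 to 1.24), EIF2AK1 at 1.27 (1.10 to 1.47) and EIF2AK3 at 1.44 (0.968 to 2.05), at percentiles 48.2, 50.5, 60.7 and 65.7. PPP1R15B had 209 reads where the median ratio would have given 79.4, or 2.63 of the median gene (2.29 to 3.01), at percentile 85.9. By hairpin the ratio was 2.93 for PPP1R15B and between 0.929 and 1.499 for the kinases. The phosphatase subunits thus lay on opposite sides of the median gene although their mean RNA levels with sh-NC were 15.5 and 13.5 FPKM. A gene's footprints are counted over its whole length, so reads on a uORF and on the main frame cannot be told apart in these values. The length also takes in untranslated parts of the mRNA, and their part in these differences was not tested.

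**Figure D4:**
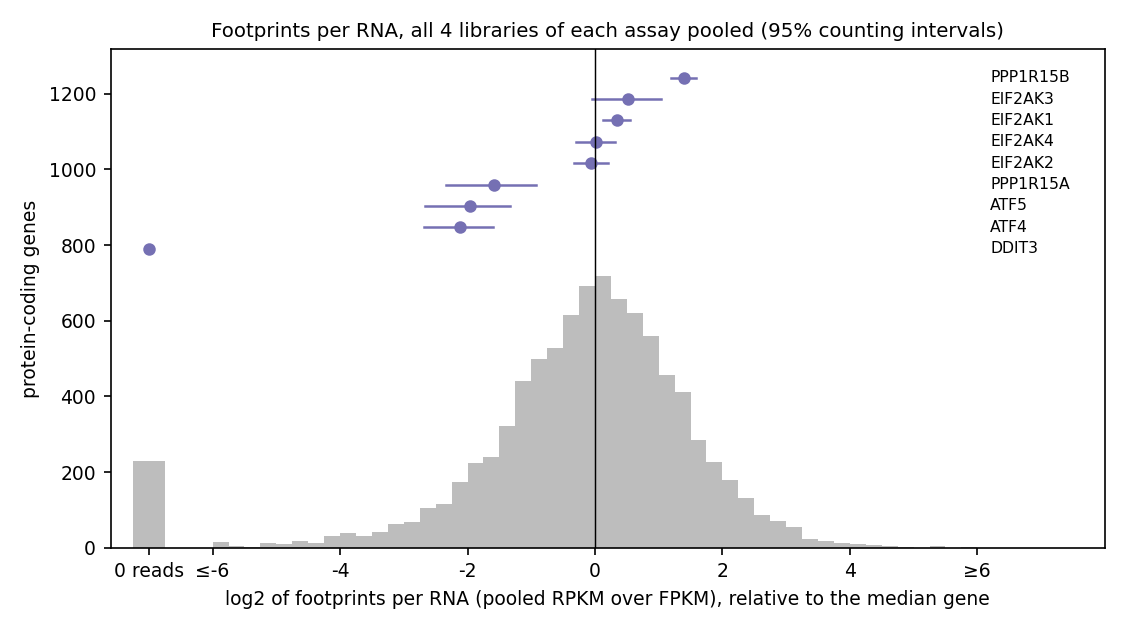
Grey bars count protein-coding genes by the log2 ratio of footprints to RNA relative to the median gene (0), with genes that had no footprint read in a bar of their own at the left. Points above show the 9 genes with exact 95% counting intervals as lines, from DDIT3 with 0 reads, through ATF4 (0.23 of the median gene), up to PPP1R15B (2.63).

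By hairpin, the 4 low genes stayed below the median gene, with few reads for sh-NC. With sh-NC, ATF4 had 4 reads against 16.8 at the median ratio, ATF5 2 against 12.6, PPP1R15A 0 against 6.64 and DDIT3 0 against 1.81. With sh-circMYBL2, ATF4 had 26 reads against 95.8, ATF5 18 against 38.1, PPP1R15A 18 against 41.6 and DDIT3 0 against 4.32. Relative to the median gene of each hairpin, ATF4 was at 0.239 (exact 95% interval 0.065 to 0.611) with sh-NC and at 0.271 (0.177 to 0.398) with sh-circMYBL2. ATF5 was at 0.159 (0.0193 to 0.576) and 0.472 (0.280 to 0.746). In the same order the percentiles were 26.4 and 11.7 for ATF4 and 24 and 22.4 for ATF5, all above the pooled ones. PPP1R15A, at percentile 15 when pooled, was at 10.8 and 19.9. Percentiles place a gene in the middle of those tied with it. The 10.8 of PPP1R15A with sh-NC, the same as for DDIT3, thus only reflects 0 reads. That holds for DDIT3 wherever its percentile is given. With 0 reads, the upper bound for DDIT3 was 2.03 with sh-NC, above the median gene, and 0.853 with sh-circMYBL2. The difference between hairpins was not tested on this scale. EIF2AK3 was at 4.2 (2.01 to 7.72) with sh-NC and at 1.14 (0.693 to 1.752) with sh-circMYBL2, on 10 and 20 reads. PPP1R15B was high with both when their libraries were pooled, at 3.28 (2.24 to 4.63) and 2.87 (2.46 to 3.33). With sh-NC, 31 of its 32 reads came from library 2 (percentile 86), and library 1, with 1 read, had it at percentile 52.1. With sh-NC, 21.7% of the reference genes had no footprint read, and 2.83% with sh-circMYBL2.

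The 7 other mRNAs listed for uORFs under stress control did not share a low ratio. IFRD1 had 9 reads, at 0.135 of the median gene (exact 95% interval 0.0615 to 0.255), and 6.04% of genes lay lower. CEBPB, EPRS and IBTK were near the median gene, at 1.07, 0.788 and 1.02. QRICH1 and SLC35A4 were above it, at 1.97 and 2.51. CEBPA, a myeloid transcription factor whose uORF sets which protein form is made, had 636 reads and was at 6.11 (5.64 to 6.60), with 97.1% of genes lower.

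Input RNA of genes around the pathway was read from 7 lists. They were chosen with earlier results of these data known, so their counts are a description and not independent evidence. The targets of ATF4 and CHOP fell in large number: 22 of 28 tested were called lower and 0 higher, beside 3.96% and 4.92% of all genes. All 28 changes were below 0 (also with quantile normalization and voom). Their median was -0.52, against -0.0037 for all genes. Without sh-NC RNA library 1, 26 of the 28 were below 0. TRIB3, a pseudokinase that binds ATF4 and CHOP, was at 11.1 and 10.9 FPKM with sh-NC and at 1.99 and 2.29 FPKM with sh-circMYBL2 (log2 change -1.94, SE 0.07, limma adjusted p 0.0072). DDIT4, an inhibitor of mTORC1, was at 40.5 and 38.2 FPKM and then 17.0 and 16.4 FPKM (log2 change -1.19). SLC7A11, the cystine transporter, was at 11.4 FPKM in both sh-NC libraries and at 4.36 and 4.73 FPKM with sh-circMYBL2 (log2 change -1.17). AARS, alanyl-tRNA synthetase, was at 39.3 and 39.8 FPKM and then 24.8 and 24.7 FPKM (log2 change -0.65). With voom 25 were called lower (12.5% of all genes), and without a filter on low values 9 of 32 (0.137%). With the replicate block 0 were called, as for all genes. Without 1 RNA library their median ranged from -0.58 to -0.49.

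Calls among the genes upstream of the factors are set beside those of the whole table, 4.92% higher and 3.96% lower. Of 8 eIF2 and eIF2B subunits, 1 was called lower and 0 higher (median log2 change 0.05). It was EIF2S2, the beta subunit of eIF2, at 100.7 and 106.8 FPKM with sh-NC and 78.2 and 73.5 FPKM with sh-circMYBL2 (limma adjusted p 0.0237). Of 11 sensors and partners of the kinases, 1 was called lower and 0 higher (median -0.05). It was HSPA5, the chaperone that holds PERK inactive, at 114.7 and 115.2 FPKM and then 76.4 and 71.8 FPKM (log2 change -0.63, limma adjusted p 0.0117). Of the 4 partners of the phosphatase subunits, PPP1CA, PPP1CB, PPP1CC and ACTB, 0 were called by limma and 1 was called higher by voom (median 0.07). The smallest limma adjusted p among them was 0.0589, for PPP1CC.

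Dimer partners of the bZIP factors went both ways, with 2 of 15 tested called higher and 2 lower (median -0.09). CEBPG, which pairs with ATF4, had a log2 change of -0.40 (limma adjusted p 0.0269) and NFE2L1, a regulator of proteasome genes, one of -0.55 (adjusted p 0.0109). CEBPA, with 0.20 (limma adjusted p 0.0468), and FOS, with 0.30 (adjusted p 0.049), were the higher ones. CEBPA was also the 1 called gene of the 7 other uORF-bearing mRNAs (median -0.16). Of 10 re-initiation and ribosome factors, 2 were called lower and 0 higher (median -0.06). They were EIF5, the factor that makes eIF2 hydrolyse GTP (log2 change -0.36, limma adjusted p 0.0218), and EIF1, which guards start codon choice (-0.34, adjusted p 0.0464). With voom, which called 13.7% of all genes higher and 12.5% lower, 3 of the eIF2 and eIF2B subunits were called higher and 1 lower, and 4 of the kinase partners lower. Voom called 1 of the other uORF-bearing mRNAs higher and 5 lower, 3 of the dimer partners higher and 5 lower, and 1 of the re-initiation factors higher and 4 lower.

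**Figure D5:**
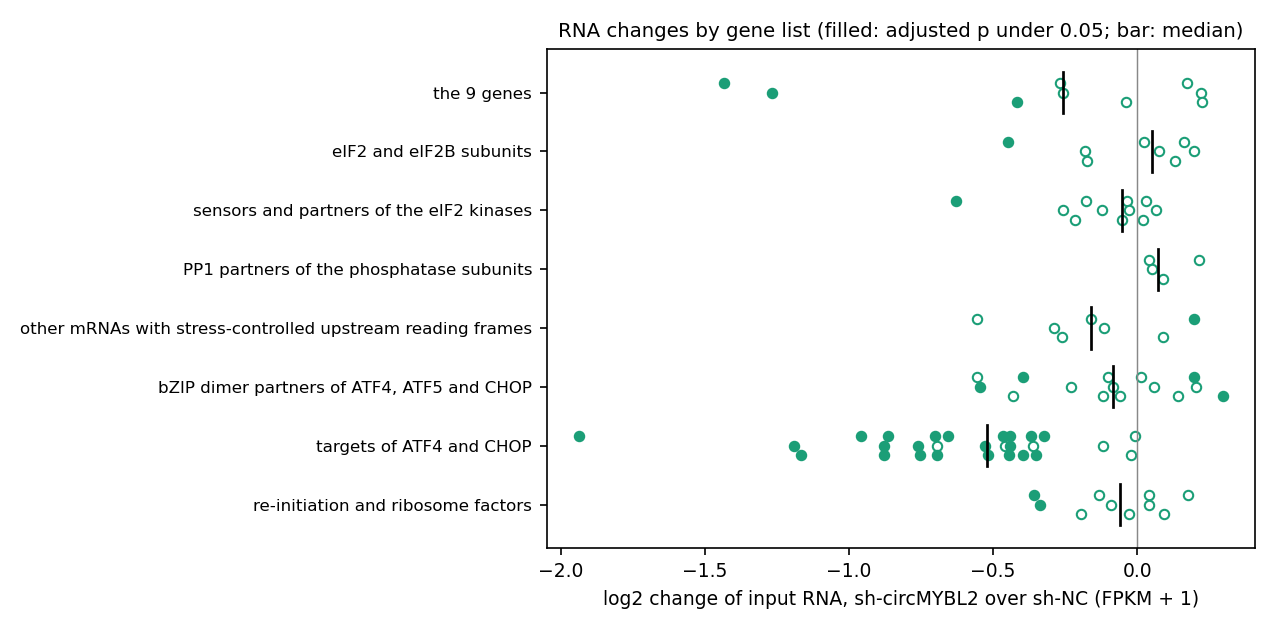
Log2 change of input RNA with sh-circMYBL2 over sh-NC for each tested gene of the 9 and of 7 pathway lists, 1 point per gene, filled where limma's adjusted p was under 0.05, with a bar at the median of the list. The targets of ATF4 and CHOP lie below 0 throughout (median -0.52), while the medians of the other 6 lists lie between -0.16 and 0.07.

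The RNA patterns most like those of the 3 factors were looked up among 5288 genes with a mean of at least 5 FPKM, by the distance between log2 profiles over the 4 RNA libraries. For ATF4 they were RAB6A (26.0 and 24.3 FPKM with sh-NC, 18.4 and 18.3 FPKM with sh-circMYBL2), RAD17 and RNF24. For ATF5 they were FCER2 (9.66 and 9.38, then 3.23 and 3.20 FPKM), VEGFA and MT-CYB. For DDIT3 they were 3 mitochondrially encoded genes, MT-ND4L (2081 and 1929, then 836 and 747 FPKM), MT-ND4 and MT-ND5. The distances were 0.029 to 0.044 for ATF4, 0.083 to 0.109 for ATF5 and 0.145 to 0.198 for DDIT3. The added 1 understates the change of DDIT3 and hardly alters that of the mitochondrial genes, so the likeness depends on it.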

How the data were processed

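The deposited footprint table holds RPKM values and the deposited input RNA table FPKM values, made by the authors with cutadapt, Bowtie, HISAT2, featureCounts and DESeq2 on hg38, per the submitters' processing notes. The sources used here name no versions, roles or strand setting. Per the labels' protocols, ribosomal RNA was removed with a kit and a small RNA library kit was used. The members and gene lists were chosen with earlier results of these data known. All 9 members are named, and up to 4 genes of each list by the smallest RNA p.

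Reads were recovered from the step that 1 read makes in each library and gene, for all 30194 genes above 0 (tolerance 0.02 reads, and 98.2% to 99.1% of microRNA values whole by themselves). The totals used in scaling differ from the reads on genes.

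Each table was fitted with limma 3.58.1 in R 4.3.3 (eBayes with trend, two-sided) after a filter that asked for a mean of 1 or more, on log2(value + 1), which understates changes of low genes. For TE the interaction between hairpin and assay was fitted over 8 libraries. Benjamini-Hochberg adjustment covered all genes of a comparison. With 2 libraries a group, the smallest p of an exact permutation test is 0.333. Scripts were tested on simulated data. Alternatives were pseudocounts of 0.1 and 5, no filter or a mean of 5, quantile normalization, voom, a replicate block, weights by assay and each library left out.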

Additional observations from a re-analysis of the deposited data

How the results depend on the processing

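RNA members called lower numbered 3, and 1 without a filter (0.137% of all genes), 5 with a mean of at least 5 (9.47%), 5 with voom (12.5%) and 0 to 0 without 1 library (0%). Called higher were 0, and 1 with a mean of at least 5 (10.6% of all genes) and 3 with voom (13.7%). With the replicate block, 0 were called lower (0% of all genes). Deviations of RNA libraries with the same replicate number correlated at 0.0265 across genes, which cannot settle whether these libraries were paired. The block leaves fewer degrees of freedom and the log2 changes were the same, so the loss is not read as a smaller change. No paired analysis was possible for footprints because the number that ends their sh-circMYBL2 column names may be a replicate or part of the hairpin's name, Sh-cricMY1 in both titles. Footprint members called higher numbered 0, and 0 to 1 without 1 library, the 1 being PPP1R15A without sh-circMYBL2 library a or b. TE members called higher numbered 1, and 0 with a pseudocount of 5, quantile normalization, voom or weights by assay, 0 with a mean of at least 5, where PPP1R15A was not tested, and 0 to 7 without 1 library. Those 7 came without sh-NC footprint library 2. TE members called lower numbered 0, and 0 to 1 without 1 library. Over all genes, 5.05% had a TE called higher in the main fit. That share was 0.0242% with a pseudocount of 5, 0% with quantile normalization, 1.63% with voom and 0.0121% with weights by assay. With a mean of at least 5 it was 1.04%. The call of PPP1R15A stayed with a pseudocount of 0.1 (9.83% of all genes) and without a filter (4.38%). The loss of the call thus went along with fewer calls in the whole table. The cause of these shifts was not tested.

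Signs turned for changes that were not called. The RNA change of EIF2AK3 ranged from -0.1247 to 0.0443 without 1 library. With quantile normalization the footprint change of EIF2AK2 was -0.34, and TE changes were -0.58 for EIF2AK2 and -0.14 for EIF2AK4. Without sh-NC footprint library 1 or, at the other end, 2, footprint changes were -0.18 and 1.12 for EIF2AK2, -0.44 and 2.87 for PPP1R15B and -0.0005 and 3.26 for ATF4, and TE changes were -0.14 and 1.91 for EIF2AK1, -0.40 and 0.90 for EIF2AK2 and -0.18 and 3.13 for PPP1R15B. A library left alone in its group was assumed to vary like the others. Against 2 other reference sets and with sh-circMYBL2 library b alone, chosen after seeing the data, the percentile of footprints per RNA was 8.86 to 10.7 for ATF4, 0.255 to 1.66 for DDIT3, 8.19 to 19.6 for ATF5 (42.1 in library a), 12.1 to 19.4 for PPP1R15A, 58.4 to 73.6 for EIF2AK1 and 54.7 to 74.1 for EIF2AK3. With sh-NC and sh-circMYBL2 taken apart, ATF4 was at percentiles 26.4 and 11.7 and ATF5 at 24 and 22.4, above these ranges. Depth limits footprints: the shallowest library gave 3 reads as 36.5 RPM.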
